A study of Mus musculus with 7 samples.

Results

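The mouse mitochondrial genome holds 37 genes, and every row of the expression tables whose Ensembl identifier maps to a symbol beginning with mt- was taken as a member. By RNA class these are 13 protein-coding genes, 2 ribosomal RNA genes and 22 transfer RNA genes. Of the 37, 16 had a row among the 32212 genes of the tables: all 13 protein-coding genes, both rRNA genes and the proline tRNA gene mt-Tp. The other 21 tRNA genes, of 59 to 75 bases, are not analysed here. All 16 genes with a row passed the filter on low values, with at least 92 reads and 6.10 FPKM in every library (FPKM are the reads of a gene relative to its length and to the library's read total).

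The libraries were made from bulk subcutaneous tumours of wild-type (WT) C57BL/6J mice injected at 6 weeks of age with cells of the Lewis lung carcinoma line (LLC), a mouse lung cancer grown as a graft. Groups were assigned 3 days later. Of the libraries, 3 come from mice that received Ze-qi decoction (ZQD), prepared from herbs, at the high dose of 42.67 g/kg, and 4 from untreated model mice (control), so that all mice carried the same graft. The protocol gives day 22 for the end point and the series design gives day 21, with 8 animals per group, but nothing states that each library is a separate mouse, so the p-values below rest on the spread among these samples alone, and that spread may be technical. Poly(A) RNA was captured on oligo(dT) beads and primed at random, and the sources used here do not say whether the kit keeps strand. The question is how the high dose changes expression in the tumour.

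Mitochondrial DNA is a small circular genome, present in many copies in most cells, that is transcribed from both strands into long precursors. The tRNAs lie between most of the larger genes, and cutting them out releases the mRNAs and rRNAs, which mostly receive short poly(A) tails. The mRNAs encode membrane subunits of respiratory complexes I, III and IV and of ATP synthase (complex V), which are built together with a larger number of subunits encoded in the nucleus. The rRNAs and tRNAs serve the ribosomes inside the organelle.

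Levels per length ran over more than 3 orders of magnitude between genes of this genome. mt-Co1, the catalytic core subunit of complex IV, had the highest mean FPKM of all 32212 genes (20726 over the 7 libraries), followed at rank 2 by mt-Cytb, the mitochondrially encoded subunit of complex III (15640), and at rank 3 by mt-Nd1 of complex I (14224). mt-Nd2 (5066, rank 4), mt-Nd5 (4693, rank 6), mt-Nd4 (2342, rank 8) and mt-Nd6 (1228, rank 12), all subunits of complex I, came next. The remaining 6 mRNAs were far lower: mt-Co2 averaged 167, mt-Atp6 81.0, mt-Nd4l 32.9, mt-Atp8 29.1, mt-Co3 24.5 and mt-Nd3 9.75 FPKM. mt-Co2 and mt-Co3 encode subunits of the same complex IV as mt-Co1. By reads, mt-Co1, mt-Cytb and mt-Nd1 together held 76.0% to 80.1% of the mitochondrial reads of a library, and the 7 most abundant mRNAs 98.68% to 99.15%. Both rRNAs together held 0.543% to 0.998% of the mitochondrial reads in these poly(A)-selected libraries.

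**Figure D1:**
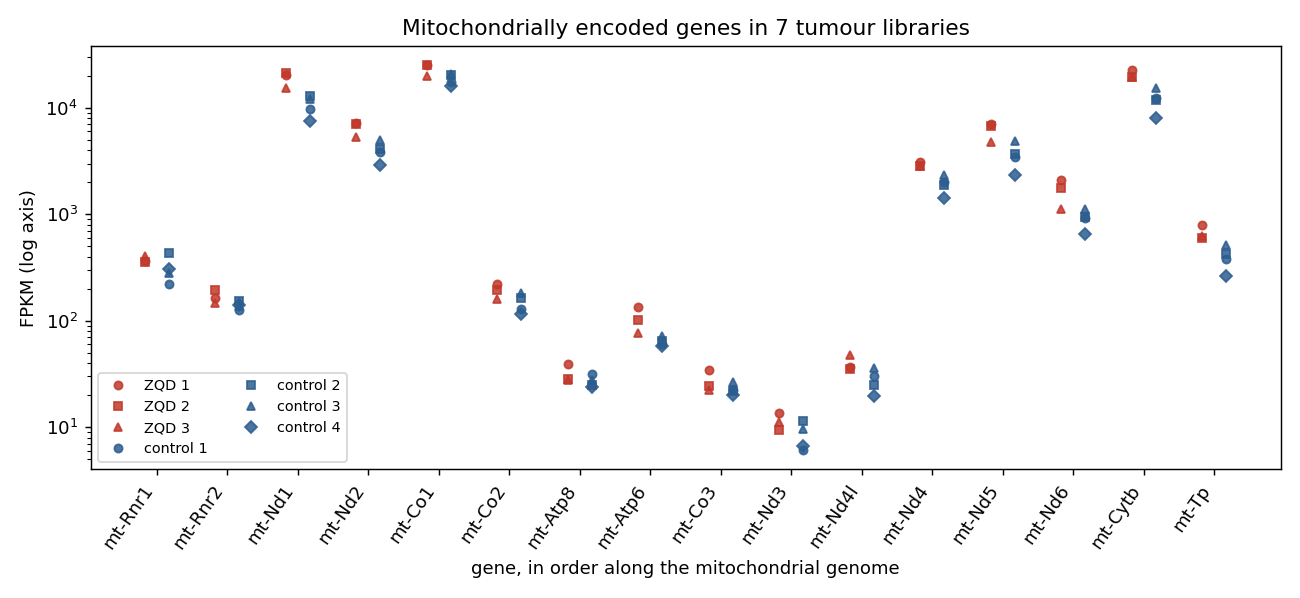
FPKM (log axis) of the 16 mitochondrially encoded genes with a row, in gene order along the mitochondrial genome, with 1 point per library, ZQD (red) left of control (blue) for each gene. mt-Co1 lies at 16191 FPKM or more in every library and mt-Nd3 between 6.10 and 13.7 FPKM.

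Of the 6 mRNAs of lowest level, 5 have near-identical copies in the nuclear genome. Segments of mitochondrial DNA have entered nuclear chromosomes, and mouse chromosome 1 carries a long one. Annotated transcripts of GENCODE M21 (build GRCm38) were searched for copies, and every 100-base window of each mitochondrial mRNA was looked up letter for letter in the nuclear transcripts. For mt-Co2, mt-Atp6, mt-Co3, mt-Nd3 and mt-Nd4l, 97.6% to 99.9% of the windows were found in a nuclear transcript. The share was 60.8% for mt-Nd4, 30.8% for mt-Co1 and 3.2% for mt-Nd2. For mt-Nd1, mt-Nd5, mt-Nd6, mt-Cytb, mt-Atp8 and both rRNAs it was 0%. In all, 7 annotated copies, from Gm29216 (mt-Co1, aligned over 483 bases) to Gm28439 (mt-Nd4), lie in mitochondrial gene order on the minus strand of chr1:24611535-24616197, a stretch of 4663 bases. mt-Atp8 is the exception among the low genes, since no copy of it is annotated there. On chromosome 1 the copies of mt-Co2 and mt-Atp6 are 233 bases apart, and on the mitochondrial genome those genes are 230 bases apart, with mt-Atp8 beginning in between. Sequence between the annotated copies was not searched, so the 0% of mt-Atp8 holds for annotated transcripts alone.

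The following stretches show how closely 3 of the mRNAs match their closest nuclear copy, since a short read cannot be placed where both are the same. Capitals mark bases that differ between a gene and its copy. The mt-Atp6 stretch (chrM:8236-8295, plus strand) and that of Gm10925 (chr1:24614283-24614342, minus strand) have no difference. mt-Nd3 (chrM:9459-9518, plus strand) and Gm28438 (chr1:24613060-24613119, minus strand) have 1. mt-Cytb (chrM:14687-14746, plus strand) and Gm11410 (chr4:80004531-80004590, plus strand) have 4.
mt-Atp6: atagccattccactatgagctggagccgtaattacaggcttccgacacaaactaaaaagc
Gm10925: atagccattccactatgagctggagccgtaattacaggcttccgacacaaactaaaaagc
mt-Nd3: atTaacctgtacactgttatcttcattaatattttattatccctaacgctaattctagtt
Gm28438: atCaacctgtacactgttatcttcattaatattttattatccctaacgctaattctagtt
mt-Cytb: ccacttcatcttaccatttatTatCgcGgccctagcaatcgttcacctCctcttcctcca
Gm11410: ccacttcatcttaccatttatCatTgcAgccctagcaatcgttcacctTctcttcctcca

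Over its whole alignment Gm10925 matched mt-Atp6 at 100% of 678 bases, Gm28438 matched mt-Nd3 at 99.7% of 345 bases with 1 mismatch, and Gm11410 matched mt-Cytb at 92.9% of 1142 bases. The copies have rows of their own. Gm10925 averaged 151 FPKM over the 7 libraries, above the 81.0 of mt-Atp6, and Gm28438 averaged 18.5, above the 9.75 of mt-Nd3. Gm28661 averaged 77.2 FPKM beside 167 for mt-Co2, and Gm10222 averaged 29.96 beside 32.9 for mt-Nd4l. Gm28439, the partial copy of mt-Nd4, was at 43.6 FPKM beside 2342. The sources used here do not say how reads with several matches were counted. The levels of mt-Co2, mt-Atp6, mt-Co3, mt-Nd3 and mt-Nd4l, and of their copies, are therefore uncertain. For part of their length this also holds for mt-Nd4 (60.8% of windows in a nuclear transcript) and mt-Co1 (30.8%). Whether shared reads set these levels was not tested.

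**Figure D2:**
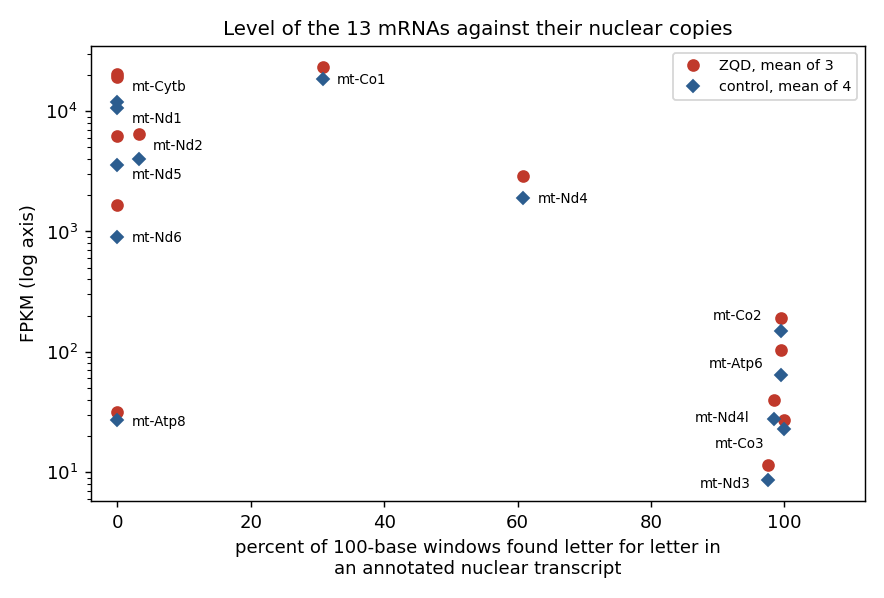
Mean FPKM (log axis) of the 13 mitochondrial mRNAs in ZQD (red circles, mean of 3 libraries) and control (blue diamonds, mean of 4) against the percent of their 100-base windows found in an annotated nuclear transcript. The 5 mRNAs at 97.6% to 99.9% all have group means of 191 FPKM or less, and mt-Atp8 is low at 0%.

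Reads from the mitochondrial genome took a larger share of the ZQD libraries than of the control libraries. In ZQD 1, 2 and 3 they made up 11.09%, 10.68% and 8.78% of all counted reads, against 6.47%, 7.26%, 7.96% and 5.18% in controls 1 to 4. Each ZQD library lay above each control, the nearest pair being ZQD 3 and control 3, and control 4 was the lowest of all. The mean share was 10.18% ± 1.23 in ZQD (SD, n = 3) and 6.72% ± 1.19 in control (SD, n = 4), a difference of 3.47 percentage points and a ratio of 1.52. Counting error is small beside that spread: with 34765330 to 38673663 counted reads in ZQD and 32065288 to 49914394 in control, the 95% Wilson interval ran from 8.77% to 8.79% in ZQD 3 and from 7.95% to 7.97% in control 3. Such intervals hold counting error alone, because without molecular identifiers a read is not an independent molecule. In bulk tissue, fewer cells of a type and less RNA per cell cannot be told apart, and the share is relative to all other RNA of the library. The 13 mRNAs carried the difference (10.12% ± 1.23 in ZQD, 6.66% ± 1.19 in control). By length the share is larger: mitochondrial genes made up 22.7% to 27.4% of summed FPKM in ZQD and 13.7% to 20.7% in control, again with no overlap.

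**Figure D3:**
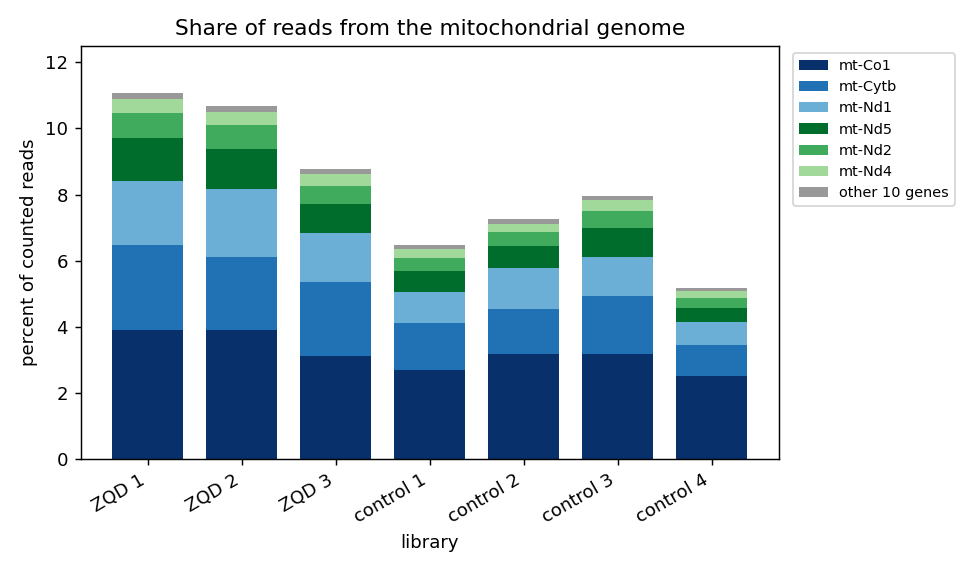
Percent of counted reads from the mitochondrial genome in each library, stacked by gene, with ZQD libraries left of controls. The ZQD stacks reach 8.78% to 11.1% and the control stacks 5.18% to 7.96%, and mt-Co1 is the largest layer in every library.

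All 16 genes had a higher mean in ZQD, by log2 fold changes of 0.23 (mt-Atp8) to 0.86 (mt-Nd1) on the log2(FPKM + 0.5) scale. Their median was 0.58, against -0.04 over the 14838 genes tested, of which 41.8% were higher. None of the 16 passed the threshold in limma with Benjamini-Hochberg adjustment over all genes tested (adjusted p 0.176 to 0.493), and neither did any other gene (0 of 14838, or 0.0%, while 2306 had an unadjusted p under 0.05). At an unadjusted p under 0.05, 9 of the 16 were higher: mt-Nd1, mt-Nd2, mt-Atp6, mt-Nd4l, mt-Nd4, mt-Nd5, mt-Nd6, mt-Cytb and mt-Tp. Over all genes 5.21% met that rule in the higher direction. With no filter on low values the count was 4 of the 16. In 6 of the 16, mt-Nd1, mt-Nd2, mt-Atp6, mt-Nd4, mt-Cytb and mt-Tp, every ZQD library lay above every control, which held for 5.35% of all genes. The call depended on the tool. On reads rebuilt from the FPKM, edgeR's quasi-likelihood test called 0 of the 16 (adjusted p 0.124 to 0.507) and 0.0% of all genes in that direction. DESeq2 called 8 of the 16, namely the same genes as the unadjusted limma rule without mt-Nd4l, and 2.3% of all genes in that direction. The genes share their libraries and are not independent of each other: control 4 was the lowest library for 13 of the 16, and ZQD 1 was the highest for 11.

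**Figure D4:**
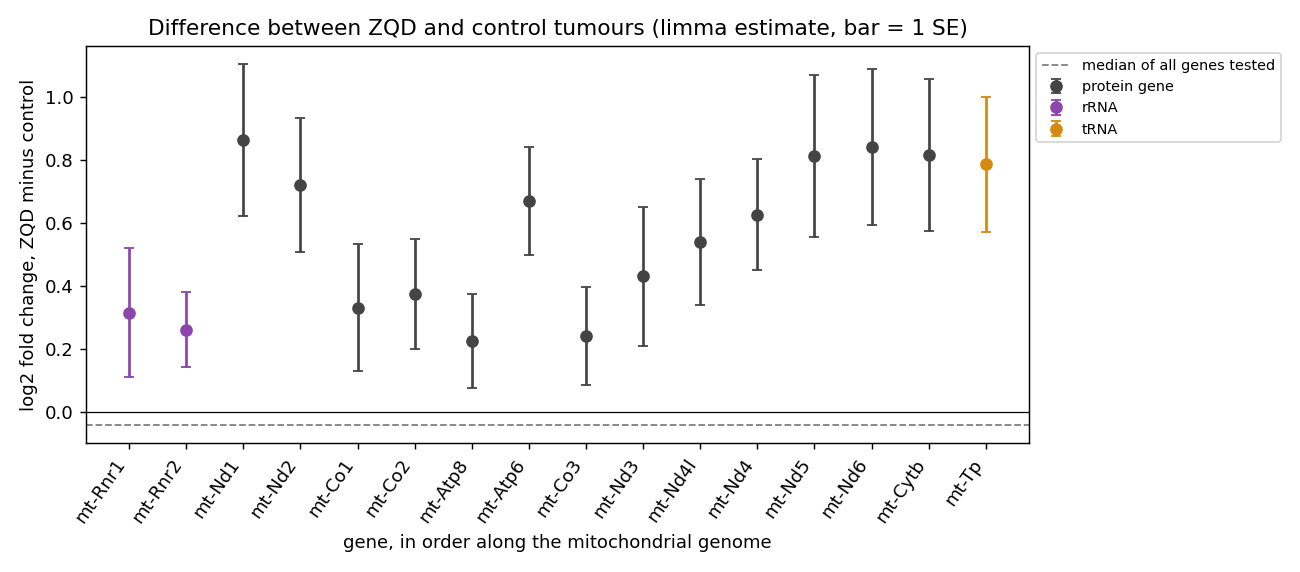
Difference of ZQD from control, as log2 fold change, for the 16 genes in gene order, with bars of 1 SE from limma and a dashed line at the median of all genes tested. Every point lies above the dashed line, with complex IV genes, mt-Atp8 and the rRNAs at 0.37 or less.

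Complex I pumps protons with electrons taken from NADH, and 7 of its membrane subunits are mitochondrially encoded. All 7 were higher in ZQD, by 0.43 to 0.86 with a median of 0.72. Of these 7, 6 had an unadjusted limma p under 0.05, beside 5.21% of all genes, and in 3 the groups did not overlap, beside 5.35% of all genes. mt-Nd1 (chrM:2751-3707) was at 20321, 21390 and 15489 FPKM in ZQD 1 to 3, against 9861, 12869, 12117 and 7523 FPKM in controls 1 to 4. ZQD 3 was the lowest of the ZQD libraries and still above control 2, the highest control. Its log2 fold change was 0.86 (SE 0.24, limma adjusted p = 0.189). mt-Nd2 (chrM:3914-4951) was at 7255, 7013 and 5269 FPKM in ZQD, against 3844, 4138, 5007 and 2937 FPKM in control. The gap between ZQD 3 and control 3 was small for this gene, and the log2 fold change was 0.72 (SE 0.21, limma adjusted p = 0.197).

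mt-Nd4 (chrM:10167-11544) was at 3100, 2820 and 2816 FPKM in ZQD, against 2020, 1898, 2329 and 1411 FPKM in control. It had the smallest spread among ZQD libraries relative to its level of the 5 most abundant complex I genes, and the groups did not overlap (log2 fold change 0.63, SE 0.18, limma adjusted p = 0.192). mt-Nd5 (chrM:11742-13565) was at 7015, 6689 and 4818 FPKM in ZQD, against 3447, 3664, 4873 and 2342 FPKM in control. Here ZQD 3 lay just under control 3, and the other ZQD libraries lay above all controls (log2 fold change 0.81, SE 0.26, limma adjusted p = 0.216). mt-Nd4l, which overlaps the start of mt-Nd4 by 7 bases and shares its transcript, was at 36.8, 35.1 and 47.6 FPKM in ZQD, against 30.15, 25.04, 36.02 and 19.49 FPKM in control. ZQD 3 was highest for this gene alone of the 16, and ZQD 2 lay under control 3 (log2 fold change 0.54). mt-Nd3 stood at 9.44 to 13.7 FPKM in ZQD and 6.10 to 11.5 FPKM in control, with 92 to 176 reads per library, and did not pass even the unadjusted rule (limma adjusted p = 0.387).

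mt-Nd6 is the protein-coding gene of the light strand, so that it is read in the direction opposite to the other 12 mRNAs. It was at 2102, 1749 and 1114 FPKM in ZQD, against 917, 946, 1116 and 654 FPKM in control. ZQD 3 lay at the level of control 3, and the log2 fold change was 0.84 (SE 0.25, limma adjusted p = 0.196), 0.65 without ZQD 1 and 1.10 without ZQD 3. mt-Nd5 and mt-Nd6 run toward each other, and their last 40 bases are shown because they share 14 bases (in capitals) on opposite strands (mt-Nd5 at chrM:13526-13565, plus strand, and mt-Nd6 at chrM:13552-13591, minus strand).
mt-Nd5: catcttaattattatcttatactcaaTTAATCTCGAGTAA
mt-Nd6: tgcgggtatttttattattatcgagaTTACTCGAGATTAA
Without strand information, reads of the light-strand gene and antisense reads over its locus cannot be told apart. The level of mt-Nd6 over that of mt-Nd5, per length, was 0.231 to 0.300 in ZQD and 0.229 to 0.279 in control, so the ratio overlapped widely. Light-strand genes (mt-Nd6 and mt-Tp) held 1.031%, 0.887% and 0.706% of mitochondrial reads in ZQD, against 0.775%, 0.715%, 0.772% and 0.690% in control. ZQD 1 and ZQD 2 were above all controls, and ZQD 3 was below controls 1, 2 and 3. The means differed by 0.137 percentage points, by 0.0585 without ZQD 1 and by 0.221 without ZQD 3.

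mt-Cytb (chrM:14145-15288) encodes cytochrome b, which passes electrons from ubiquinol within complex III. It was at 22641, 19460 and 19587 FPKM in ZQD, against 12474, 11896, 15321 and 8101 FPKM in control. All ZQD libraries lay above all controls, and the log2 fold change was 0.82 (SE 0.24, limma adjusted p = 0.197). Without control 4, the lowest library, it was 0.64.

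The 3 mitochondrially encoded subunits of complex IV, which reduces oxygen to water, had log2 fold changes of 0.24 to 0.37. None passed even the unadjusted rule in limma, but this depended on the tool. On rebuilt reads mt-Co1 had an unadjusted p of 0.0197 in edgeR and 0.00638 in DESeq2. For mt-Co2 these were 0.0377 (edgeR) and 0.0231 (DESeq2), and for mt-Co3 0.0904 (edgeR) and 0.0837 (DESeq2). mt-Co1 (chrM:5328-6872) was at 25161, 25182 and 20063 FPKM in ZQD, against 17367, 20512, 20609 and 16191 FPKM in control. ZQD 3 lay under controls 2 and 3, so the groups overlapped, and the log2 fold change was 0.33 (SE 0.20, limma adjusted p = 0.459). mt-Co2 stood at 160 to 219 FPKM in ZQD and 116 to 183 FPKM in control, and mt-Co3 at 22.5 to 34.6 FPKM in ZQD and 20.2 to 26.3 FPKM in control. The fold change of mt-Co3 was 0.06 without ZQD 1, against 0.24 with all libraries.

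ATP synthase takes mt-Atp6, the subunit that forms part of the proton path, and the small subunit mt-Atp8 from this genome. Both reading frames overlap by 43 bases on a shared transcript. mt-Atp6 (chrM:7927-8607) was at 133.7, 101.6 and 76.8 FPKM in ZQD, against 60.1, 65.2, 71.3 and 58.5 FPKM in control. ZQD 1 stood well above the rest and ZQD 3 just above control 3, without overlap (log2 fold change 0.67, SE 0.17, limma adjusted p = 0.176). Its near-identical nuclear copy Gm10925 was at 234.7, 183.1 and 116.6 FPKM in ZQD, against 136.4, 124.8, 146.9 and 113.9 FPKM in control. For the copy the groups overlapped, since ZQD 3 lay under controls 1, 2 and 3, and the log2 fold change was 0.40. The closest copies of mt-Co1, mt-Co2, mt-Co3, mt-Nd3, mt-Nd4l and mt-Nd4 were higher in mean as well. Their log2 fold changes ran from 0.25 (Gm28661) to 0.70 (Gm28438). Among these, only Gm10222, the copy of mt-Nd4l, lay above all controls in ZQD, as did 5.35% of all genes. mt-Atp8 was at 27.9 to 39.5 FPKM in ZQD and 23.6 to 31.7 FPKM in control, and its fold change of 0.23 was 0.06 without ZQD 1.

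The rRNAs had smaller log2 fold changes than most mRNAs, although that contrast was not tested. mt-Rnr1, the RNA of the small ribosomal subunit (chrM:70-1024), was at 362, 360 and 405 FPKM in ZQD, against 219, 437, 279 and 308 FPKM in control. Control 2 was the highest library, the only case among the 16 in which a control was, and the log2 fold change was 0.32 (SE 0.21, limma adjusted p = 0.488), 0.16 without control 1 and 0.49 without control 2. mt-Rnr2, the RNA of the large subunit (chrM:1094-2675), was at 162, 196 and 146 FPKM in ZQD, against 125, 153, 139 and 140 FPKM in control. ZQD 3 lay under control 2 (log2 fold change 0.26, SE 0.12, limma adjusted p = 0.334), and without ZQD 2 the fold change was 0.14. Together the rRNAs held 0.0624% ± 0.0026 of counted reads in ZQD (SD, n = 3) and 0.0517% ± 0.0105 in control (SD, n = 4). Capture by poly(A) limits how far these values stand for the rRNA of the organelle.

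mt-Tp is the gene of the tRNA that carries proline, on the light strand at chrM:15356-15422. Its sequence is shown because it is the sole tRNA gene with a row and is short, at 67 bases.
mt-Tp: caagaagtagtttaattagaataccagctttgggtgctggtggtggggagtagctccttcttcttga
It was at 787, 602 and 621 FPKM in ZQD, against 381, 422, 517 and 265 FPKM in control, from 1446 to 1944 reads in ZQD and 700 to 1274 reads in control. All ZQD libraries were above all controls, and the log2 fold change was 0.79 (SE 0.21, limma adjusted p = 0.186). Its level per length over that of mt-Cytb, the nearest mRNA gene, was 0.0309 to 0.0348 in ZQD and 0.0305 to 0.0354 in control. Whether its reads come from the tRNA, from longer precursors or from the opposite strand was not tested.

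The composition of the mitochondrial mRNA pool was compared next, and no mRNA passed that test. As a percent of reads on the 13 mRNAs, mt-Co1 stood at 35.3%, 36.6% and 35.6% in ZQD, against 41.8%, 44.1%, 40.3% and 48.8% in control. Every ZQD library was below every control, and control 4 was the highest (two-sided exact permutation p = 0.0571). The groups were also apart for the low gene mt-Co2, at 0.125% to 0.136% in ZQD and 0.138% to 0.158% in control (exact permutation p = 0.0571). mt-Nd1 made up 17.98% ± 1.17 of these reads in ZQD and 15.14% ± 1.36 in control, and mt-Cytb 23.40% ± 2.37 in ZQD and 20.35% ± 2.15 in control. For both the groups overlapped, with exact permutation p = 0.0857 for mt-Nd1 and 0.171 for mt-Cytb. mt-Nd4 was at 4.00% ± 0.41 in ZQD and 3.96% ± 0.31 in control (exact permutation p = 0.886). Of the 13 mRNAs compared, 0 reached an exact permutation p under 0.05, and the smallest p that 3 against 4 libraries allow is 0.0286. Since these percents sum to a fixed total, a lower percent of mt-Co1 raises the others. With mt-Co1 left out of the pool, the difference was 1.06 percentage points for mt-Nd1, against 2.84 with it, and 0.323 for mt-Cytb, against 3.04. The ratio of mt-Nd1 to mt-Co1, per length, was 0.808, 0.849 and 0.772 in ZQD, against 0.568, 0.627, 0.588 and 0.465 in control. That ratio was chosen after its values were seen and is a description, with no test.

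**Figure D5:**
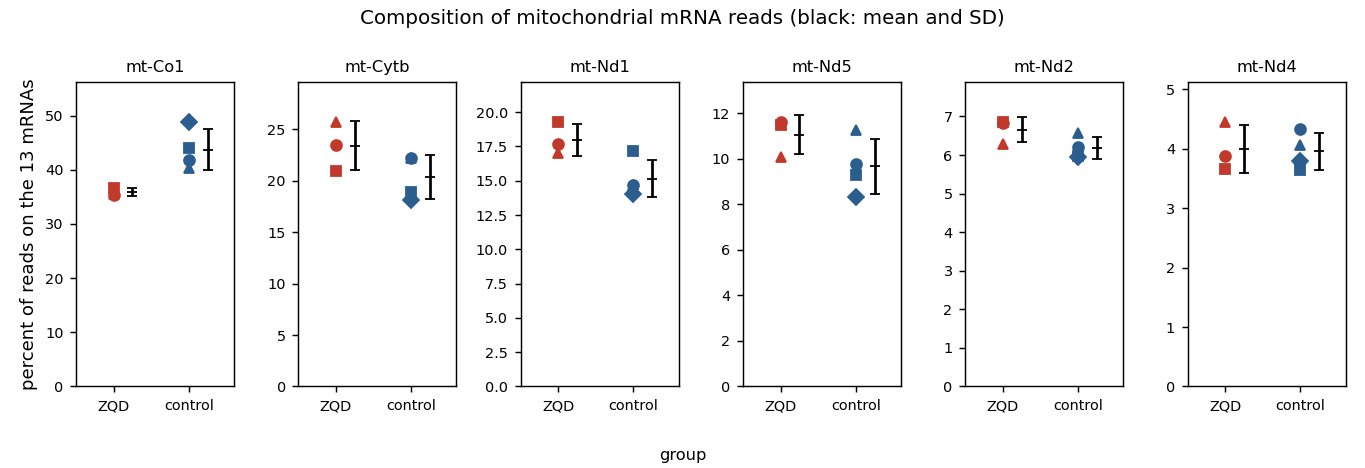
Percent of the reads on the 13 mitochondrial mRNAs that fell on each of the 6 most abundant, in ZQD (red) and control (blue), with circle, square, triangle and diamond for replicates 1 to 4 and black bars for the mean and SD. The ZQD points of mt-Co1 lie at 35.3% to 36.6%, below all control points, and for the other 5 genes the groups overlap.

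The nuclear partners of these genes lay on both sides of the control level. For 39 nuclear-encoded subunits of the respiratory chain and ATP synthase, 18 were higher and 21 lower in ZQD, with a median log2 fold change of -0.05. At an unadjusted p under 0.05, 3 were higher and 5 lower, where 5.21% and 10.3% of all genes were. Their summed FPKM was 1642, 1579 and 1648 in ZQD, against 1607, 1652, 1584 and 1765 in control, so the groups overlapped. The summed FPKM of the 13 mitochondrial mRNAs was 69501 to 88073 in ZQD and 39402 to 61725 in control. That is 42.2 to 53.7 times the nuclear sum in ZQD and 22.32 to 38.97 times in control. Among the most abundant nuclear subunits, Atp5a1 averaged 252.4 ± 7.0 FPKM in ZQD and 242.1 ± 20.3 FPKM in control, and Atp5b was at 150.4 to 159.2 FPKM in ZQD and 161.7 to 221.1 FPKM in control. Both encode subunits of the catalytic head of ATP synthase. The smallest p values belonged to Atp5e (log2 fold change -0.38, limma adjusted p = 0.173) and Atp5d (-0.48, limma adjusted p = 0.179), small subunits of ATP synthase that lay below all controls in ZQD, as did 9.84% of all genes.

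Genes that transcribe mitochondrial DNA were close to the median of all genes. Of 9, 5 were higher and 4 lower, and 0 had an unadjusted limma p under 0.05. Tfam, which packages mitochondrial DNA and starts its transcription, was at 10.2, 8.60 and 9.25 FPKM in ZQD, against 8.12, 10.49, 9.32 and 9.56 FPKM in control (log2 fold change 0.00). Polrmt, the mitochondrial RNA polymerase, was at 4.90 to 5.61 FPKM in ZQD and 5.65 to 6.32 FPKM in control (-0.19, limma adjusted p = 0.353). In ZQD it lay just below all controls, as did 9.84% of all genes. The most abundant of the list was the transcription factor Tfb2m (-0.06), and the elongation factor Tefm had a log2 fold change of -0.23. Of 29 tested genes of mitochondrial RNA processing and stability, 9 were higher and 20 lower, 4 of the lower genes at an unadjusted p under 0.05, a rule that 10.3% of all genes met in that direction. Pnpt1, a polynucleotide phosphorylase that degrades mitochondrial RNA, had a log2 fold change of -0.07, and Hsd17b10, a subunit of mitochondrial RNase P, -0.14. The smallest p values were those of Fastk (-0.26, limma adjusted p = 0.266), which in mice takes part in mt-Nd6 biogenesis, and Tbrg4 (-0.33, limma adjusted p = 0.280), of the same protein family.

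Replication and maintenance of mitochondrial DNA was represented by 16 genes, of which 4 were higher and 12 lower, 1 and 5 of them at an unadjusted limma p under 0.05 (5.21% and 10.3% of all genes). Lig3, the DNA ligase of mitochondria (log2 fold change -0.28), and the topoisomerase Top3a (-0.35) lay below all controls in ZQD, as did 9.84% of all genes. Slc25a4, the ADP/ATP carrier (-0.10), and Rnaseh1, which removes RNA primers (-0.08), overlapped. For regulators of mitochondrial biogenesis, 5 of 11 tested were higher and 6 lower. Myc, a transcription factor that drives growth genes, was the most abundant of them, at 58.7, 88.1 and 84.1 FPKM in ZQD, against 97.3, 116.0, 102.8 and 117.9 FPKM in control (-0.51, limma adjusted p = 0.195). ZQD 1 was the lowest library for Myc and the highest for most mitochondrial genes. The transcription factors Yy1 (0.02) and Esrra (-0.22) overlapped between groups. Genes of mitochondrial mass and import were higher for 7 and lower for 10 of 17, with the chaperonins Hspd1 at -0.20 and Hspe1 at -0.22, the import chaperone Hspa9 at 0.02 and the prohibitin Phb2 at -0.29. Of 11 tested mitophagy genes, 4 were higher and 7 lower: the adaptor Sqstm1 was at 105.8 to 134.4 FPKM in ZQD and 140.3 to 189.2 FPKM in control, and the receptor Optn at 4.39 to 5.09 FPKM in ZQD and 3.66 to 4.04 FPKM in control, both without overlap (limma adjusted p = 0.247 and 0.246). Over all genes, ZQD lay below all controls for 9.84% and above all controls for 5.35%. Bnip3l, another mitophagy receptor, differed by -0.02. Summed FPKM of the biogenesis regulators, led by Myc, was 161 to 194 in ZQD and 204 to 226 in control, without overlap. For the mitophagy genes, led by Sqstm1, it was 322 to 335 in ZQD and 356 to 432 in control, also without overlap. The sums of the transcription, RNA processing, replication and import lists overlapped. In none of these lists did a gene pass the adjusted threshold.

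The samples are labelled as tumour cells, but markers of host cells were present in all libraries, and their part in the mitochondrial share was not tested. No marker was at 0 in all 7 libraries. Macrophage markers, of which C1qb was the most abundant, summed to 862 to 1072 FPKM in ZQD and 750 to 953 in control, with 10 of 11 tested higher and 4 of them at an unadjusted limma p under 0.05, beside 5.21% of all genes (median log2 fold change 0.17). T and NK cell markers, led by Thy1, summed to 46.5 to 50.5 FPKM in ZQD and 27.7 to 44.1 in control, the sole marker sum without overlap. Of these, 8 of 8 tested were higher, where 41.8% of all genes were. At an unadjusted limma p under 0.05, 1 was higher, namely Thy1, beside 5.21% of all genes. Thy1 weighs most in the sum, at 16.51 to 26.24 FPKM in ZQD and 11.32 to 16.5 in control. Trac, the next most abundant, overlapped, at 8.16 to 10.6 FPKM in ZQD and 5.46 to 9.08 in control. The NK markers Ncr1 and Klrb1c did not pass the filter. Whether the sums stay apart without Thy1 was not tested. Neutrophil markers summed to 46.5 to 109 FPKM in ZQD and 29.2 to 67.4 in control, sums that overlapped. Of 9 tested, 8 were higher (median log2 fold change 0.86). At an unadjusted limma p under 0.05, 3 were higher, beside 5.21% of all genes. Mmp9, the most abundant neutrophil marker, was the exception at -0.35. Summed endothelial markers led by Cdh5 (20.3 to 39.98 in ZQD and 19.04 to 32.6 in control, 7 of 7 tested higher) and fibroblast markers led by Col3a1 (33.3 to 236 in ZQD and 26.7 to 136 in control, 6 of 8) overlapped. In both lists 0 genes had an unadjusted limma p under 0.05. B cell markers led by Pax5 (2.49 to 2.78 in ZQD, 2.48 to 3.47 in control) and erythroid and platelet markers led by Hbb-bs (61.9 to 414 in ZQD, 67.9 to 243 in control) overlapped as well. Of 8 epithelial markers only Cdh1 and Krt19 passed the filter, and both were lower in mean (sum 7.25 to 21.2 in ZQD, 9.16 to 33.6 in control).

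Markers of skeletal muscle and of brown and white adipocytes were looked for as well. Skeletal muscle markers, led by Mylpf, summed to 4.27 to 12.8 FPKM in ZQD and 2.66 to 43.0 in control, with the highest value in control 1. Adipocyte markers, led by Cfd, summed to 102, 22.9 and 2.51 FPKM in ZQD, against 2.31 to 6.96 in control, so that ZQD 1 and ZQD 2 were above all controls and ZQD 3 within their range. Adipoq, the adipocyte hormone adiponectin, was at 10.1 FPKM in ZQD 1, 1.48 in ZQD 2 and 0 in ZQD 3, against at most 0.452 in control. Ucp1, the defining gene of brown adipocytes, was at 0.298 FPKM in ZQD 1 and at 0 in ZQD 2 and ZQD 3. Without ZQD 1 the mitochondrial share differed by 3.02 percentage points, against 3.47 with it, and the share in ZQD 3 was 8.78%. The part of fat tissue in the share was not tested. Of the nuclear long RNAs, Malat1 was at 92.2 to 121 FPKM in ZQD and 68.2 to 121 in control, and Neat1 at 36.8 to 59.6 in ZQD and 43.5 to 50.7 in control, and both overlapped. Gas5, a host RNA of small nucleolar RNAs that was listed with them but is largely cytoplasmic, was at 74.3 to 89.4 FPKM in ZQD and 67.1 to 89.5 in control. A list of 20 genes meant for RNAs without a poly(A) tail had 3 that could be tested (1 higher, 2 lower). Its most abundant member, Snhg1, does carry a tail, so the list does not describe the capture step.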

How the data were processed

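Bulk mRNA sequencing of 7 tumour libraries (3 ZQD, 4 control, grouped by title and treatment label) was used. The authors deposited FPKM for every library and raw counts per gene for controls 1 and 2. HISAT2, featureCounts, Subread and DESeq2 are named, without versions or roles, per the submitters' processing notes. The sources used here do not give the genome build, the annotation or the handling of reads with several matches. Counts and FPKM of controls 1 and 2 gave a length for 27421 genes, and with it reads were rebuilt in all libraries (all, 100%, within 0.05 of a whole number, for controls 1 and 2 by construction). Lengths equalled GENCODE M21 (GRCm38) for all 16 members and for 98.2% of the genes compared, so positions and sequences are those of that annotation. It holds transcripts only, so nuclear copies outside annotated transcripts were not searched. BLAST+ 2.17.0 found the closest copy (e-value at most 1e-10). Libraries of a group differed by more than sampling noise (mean chi-square per gene 29.2 to 73.9).

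The test across genes was limma 3.58.1 with trend (R 4.3.3) on log2(FPKM + 0.5), for 14838 genes at 0.5 FPKM or more in at least 3 libraries, two-sided, with a Benjamini-Hochberg adjusted p under 0.05 as the threshold. A fold change on this scale understates that of low genes. edgeR 4.0.16 and DESeq2 1.42.0 on rebuilt reads were alternatives, run on 14832 genes with a length (DESeq2 gave an adjusted p for 12525), and scripts were tested on simulated data. Percents of single mRNAs were compared by exact permutation over all 35 splits; sums over the members carry no p. The members and lists were chosen with earlier results of these data known, and those results already showed the mitochondrial mRNAs higher in ZQD. From each nuclear list the 2 most abundant genes and the 2 of smallest p are named.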

Additional observations from a re-analysis of the deposited data

Results flagged for a closer look

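Within the control group of 4 libraries, 34 sets of values were screened for a library far from the rest. The screen flagged 2, which is close to the rate of about 1 in 20 that chance gives. Control 1 was low for mt-Co2 as a percent of mitochondrial mRNA reads, at 0.138% against 0.155% to 0.158% in the other 3 controls. Control 4 was high for mt-Atp6 on the same measure, at 0.0777% against 0.0614% to 0.0637% in the other 3. Both genes have near-identical copies on chromosome 1, so both values are uncertain.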

How the results depend on the processing

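All 304 fold changes of the 16 genes (19 alternatives each) stayed above 0. Not all of these are separate checks. The filter and trend settings cannot change a fold change, and the replicate block gave the same values as leaving out control 4. The count of genes past the adjusted threshold over all genes, 0 in limma, was 517 with DESeq2 (2322 at an unadjusted p under 0.05), 0 with edgeR (2221) and 1 with the replicate number as a block. The block left 9 members at an unadjusted p under 0.05. Because only control has a replicate 4, control 4 does not enter the fold changes of the block fit. Deviations of same-numbered libraries correlated at 0.252, 0.1 and -0.15. Differently numbered libraries were not compared, so these values do not settle whether replicate numbers pair the libraries. Without a filter the count of members at an unadjusted p under 0.05 was 4 in place of 9, and the cause was not tested. Scaling moved the median of all genes between -0.146 (TPM scale) and 0.004 (total without mitochondrial genes). Leaving out 1 library gave a difference in mitochondrial share of 2.956 to 4.17 percentage points and in mRNA share of 2.944 to 4.157. In composition, leaving out mt-Co1 gave 1 mRNA with an exact permutation p under 0.05. This was mt-Co3 (-0.0156 percentage points, exact permutation p = 0.0286), whose level is uncertain because of its near-identical copy. Leaving out mt-Co1 also turned the differences of mt-Nd2 to -0.622, mt-Atp6 to -0.0108 and mt-Nd4 to -0.813 percentage points. With 1 library left out, the difference ranged from -0.00356 to 0.00773 for mt-Atp6, from -0.00241 to 0.000785 for mt-Nd4l and from -0.187 to 0.208 for mt-Nd4, so these have no stable direction. Depth limits mt-Nd3 most, at 92 to 176 reads.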
